A study of Mus musculus with 21 samples.

Results

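Hepatocyte Mboat7 loss was described here in mice fed a standard laboratory chow, by comparing 7 livers in which Mboat7 had been deleted in hepatocytes (KO) with 6 livers of Mboat7 wild-type mice (WT). These 13 libraries were taken by genotype and diet label from the 21 of the series, whose other 8 came from mice given a diet rich in fat, poor in methionine and lacking choline. Both groups were 10 weeks old per the labels, which name no treatment besides the diet, and whole liver was taken after perfusion with phosphate-buffered saline. The labels do not name the Cre driver, the exons removed, the sex, the hour of collection or the feeding state, and they do not say whether the groups were littermates. Replicate numbers only name the livers and pair nothing across the groups. Each liver carries its own animal number, so p-values measure the spread between animals, in a whole tissue that still holds every other cell type of the liver.

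Mboat7 encodes a membrane-bound acyltransferase that places arachidonic acid on lysophosphatidylinositol, so that it shapes the acyl chains of phosphatidylinositol. In hepatocytes, fatty acids are either esterified into triglyceride and phospholipid or oxidised in mitochondria and peroxisomes, and the oxidation genes are under control of the nuclear receptor PPAR-alpha, which is active in fasting. Sterol and lipogenic genes are controlled by SREBP factors, insulin and the liver X receptor, LXR.

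The libraries held 17502231 to 23058789 counts, of which albumin took 5.39% to 8.71%. The hepatocyte identity list summed to 101250 to 125700 CPM (counts scaled to a fixed total per library) in KO and 96323 to 141869 CPM in WT, so the ranges of the 2 groups overlapped. In a principal component analysis the first axis took up 19.5% of the variance. On it KO livers stood at -27.3 to 0.65 and WT livers at -1.8 to 43.6. Of the WT livers only replicate 3 lay within the KO range, and WT replicate 6 was farthest out, at 43.6. The second axis took up 16% and set KO replicate 7 farthest out, at 44.5. KO replicates 1 and 7 and WT replicates 3, 5 and 6 are followed beside the results they touch.

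Mboat7 (chromosome 7, 3677789 to 3693523, minus strand, GRCm38) fell in KO livers. Its level was lowest at 31.3 CPM, with a median of 34.7 and a highest value of 38 CPM, in WT, and in KO the lowest, median and highest values were 18, 20.9 and 23.1 CPM. No KO liver reached any WT liver. WT livers averaged 34.5 CPM ± 2.77 (SD, n = 6) and KO livers 20.5 CPM ± 1.67 (SD, n = 7). On the log2 scale the KO level was changed by -0.75 (SE 0.073), with an edgeR adjusted p of 0.000145. An exact permutation test of this gene gave p = 0.000583, two-sided, the smallest that 7 against 6 can give. Exons of Mboat7 lie over those of Tsen34 on the other strand, and the strand setting of the counting is not given in the sources used here. Among 82 tested genes within 10 Mb of Mboat7 on chromosome 7, 0 had an adjusted p under 0.10, and Isoc2b had the smallest, at 0.145 (edgeR).

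Of 14147 genes tested in the fit to these 13 livers, 2 passed an adjusted p under 0.05, which is 0.0141% of them, and such genes are called here. The other one was Rnf145, which encodes a ubiquitin ligase of the endoplasmic reticulum that acts in the feedback control of sterol synthesis and is a target of LXR. Rnf145 (chromosome 11, 44518964 to 44565520, plus strand) stood at 33.3 to 38 CPM in WT, with a median of 35.2, and at 44 to 52 CPM in KO, with a median of 47.3. Every KO liver was above every WT liver. The means were 35.3 CPM ± 2.01 (SD, n = 6) and 47.9 CPM ± 2.9 (SD, n = 7), a rise of 0.44 in log2 units (SE 0.063, adjusted p = 0.0152 by edgeR). The fold change stayed between 0.41 and 0.46 with each of the 13 livers left out, but the call was lost without KO replicate 4 (edgeR adjusted p = 0.0534), KO replicate 6 (0.053) or WT replicate 5 (0.0716). Without KO replicates 1 and 7 together the edgeR adjusted p was 0.106, and with runs of neighbouring animal numbers as a block it was 0.0722, at a log2 fold change of 0.45 in both. WT replicate 6 was alone in its run, so it added nothing to the KO against WT contrast of the block fit.

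The 250 bases before the first RefSeq start of Rnf145 (GRCm38.p6, chr11:44518706-44518955, plus strand) are shown because this is the one called gene besides Mboat7, and those before the start of Cpt1a (chr19:3323051-3323300, plus strand) because it leads the carnitine shuttle genes described next. Capitals mark the letters AGGTCA, a half-site of nuclear receptors, or their reverse complement; none is present in the first sequence and 1, in reverse complement, in the second.

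Rnf145: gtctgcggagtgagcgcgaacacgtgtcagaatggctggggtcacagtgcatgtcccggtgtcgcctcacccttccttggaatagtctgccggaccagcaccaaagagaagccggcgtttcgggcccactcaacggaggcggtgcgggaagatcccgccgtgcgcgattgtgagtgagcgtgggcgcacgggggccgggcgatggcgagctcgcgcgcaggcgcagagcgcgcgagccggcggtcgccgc

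Cpt1a: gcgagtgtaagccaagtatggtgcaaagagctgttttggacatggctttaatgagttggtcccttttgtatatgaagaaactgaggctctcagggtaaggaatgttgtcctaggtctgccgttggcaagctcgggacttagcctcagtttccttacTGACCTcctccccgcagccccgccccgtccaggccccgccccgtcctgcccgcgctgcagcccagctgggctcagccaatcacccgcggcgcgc

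Of the 28 oxidation genes described next, 21 had a promoter in the RefSeq table, with 22 windows, and 4 of these windows (18.2%) held the half-site on either strand. Over all 32851 windows of this length in the table the share was 14%. Such a match describes letters only, and no binding was measured.

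**Figure D1:**
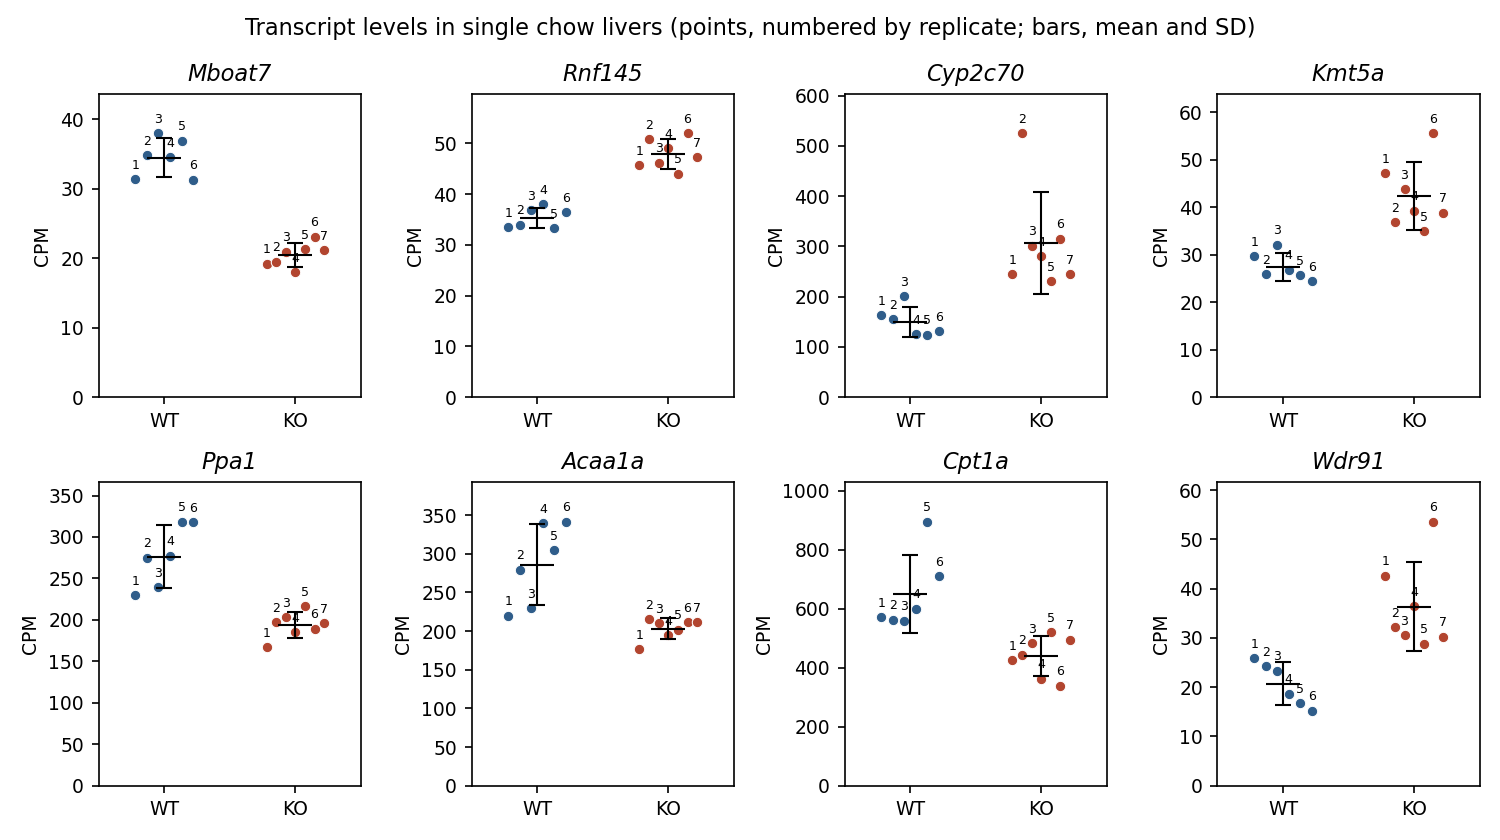
Levels in CPM (vertical axes, from 0) of 8 genes in the 6 WT and 7 KO chow livers, with each point numbered by replicate and bars for the mean and SD. Mboat7 and Rnf145 are the called genes; in each panel the KO and WT points do not overlap.

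Genes of fatty acid oxidation shared 1 direction. All 28 listed genes of fatty acid oxidation and ketogenesis were tested and all 28 had a negative log2 fold change, with a median of -0.27, where the median over all tested genes was 0.02 and 53.4% were positive. None was called. An unadjusted p under 0.05 was reached by 21, all lower in KO, beside 8.96% of all tested genes that were lower and 7.5% that were higher at that p (16.5% in either direction). At an adjusted p under 0.10, which 1.68% of all genes reached, there were 7 of the 28, and 5 had no overlap between the groups, as 0.714% of all genes had. The summed level of the list was 25044 to 31184 CPM in KO and 31612 to 42832 CPM in WT, so that the highest KO liver lay just under the lowest WT liver.

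Long-chain fatty acids enter mitochondria through the carnitine shuttle, and its 3 genes were all lower at an unadjusted p under 0.05. Cpt1a, the rate-limiting carnitine palmitoyltransferase of the outer mitochondrial membrane, had lowest, median and highest values of 560, 586 and 895 CPM in WT and of 338.7, 443 and 521 CPM in KO. All KO livers were below all WT livers, and WT replicate 5 was the highest. The log2 fold change was -0.57 (SE 0.13, edgeR adjusted p = 0.076).

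Within the mitochondrial beta-oxidation spiral, 12 of 12 genes were negative, 8 had an unadjusted p under 0.05, and the median was -0.23. Decr1, the dienoyl-CoA reductase needed for polyunsaturated chains, stood at 337.4 to 470.3 CPM in WT livers against 259.3 to 326.9 CPM in KO livers (log2 fold change -0.38, edgeR adjusted p = 0.0761). Acadl, the long-chain acyl-CoA dehydrogenase, stood at 431 to 535 CPM in WT livers against 348 to 420 CPM in KO livers (-0.30, edgeR adjusted p = 0.0908). Neither gene overlapped between the groups. At the other end of the spiral were Eci2 and Acaa2, both at -0.07, and the electron transfer gene Etfa at -0.0033.

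Peroxisomal oxidation had lower values again. All 3 listed genes were negative with an adjusted p under 0.10 (edgeR). Ehhadh, the bifunctional enzyme of the pathway, stood at 2826 to 4817 CPM in WT livers against 1742 to 3233 CPM in KO livers, where only KO replicate 5 came above the lowest WT liver (-0.68, SE 0.14, edgeR adjusted p = 0.0709). The thiolase gene Acaa1b was at -0.42 (edgeR adjusted p = 0.0781), and its near-identical neighbour copy Acaa1a, outside the list, at -0.49 (edgeR adjusted p = 0.0734), with 220 to 342 CPM in WT livers against 176 to 216 CPM in KO livers. Reads of these copies may be split between them.

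Omega-oxidation and ketogenesis followed the same sign. Cyp4a14, a fatty acid omega-hydroxylase, stood at 8736 to 13880 CPM in WT livers against 6701 to 9378 CPM in KO livers (-0.49, edgeR adjusted p = 0.0804). Bdh1, which makes beta-hydroxybutyrate, was at -0.50 (edgeR adjusted p = 0.179). Ppara itself stood at 62.7 to 104.2 CPM in WT livers against 54.5 to 76.3 CPM in KO livers, with overlap (-0.29, edgeR adjusted p = 0.262). Cyp4a members share sequence, so reads could be divided between them.

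**Figure D2:**
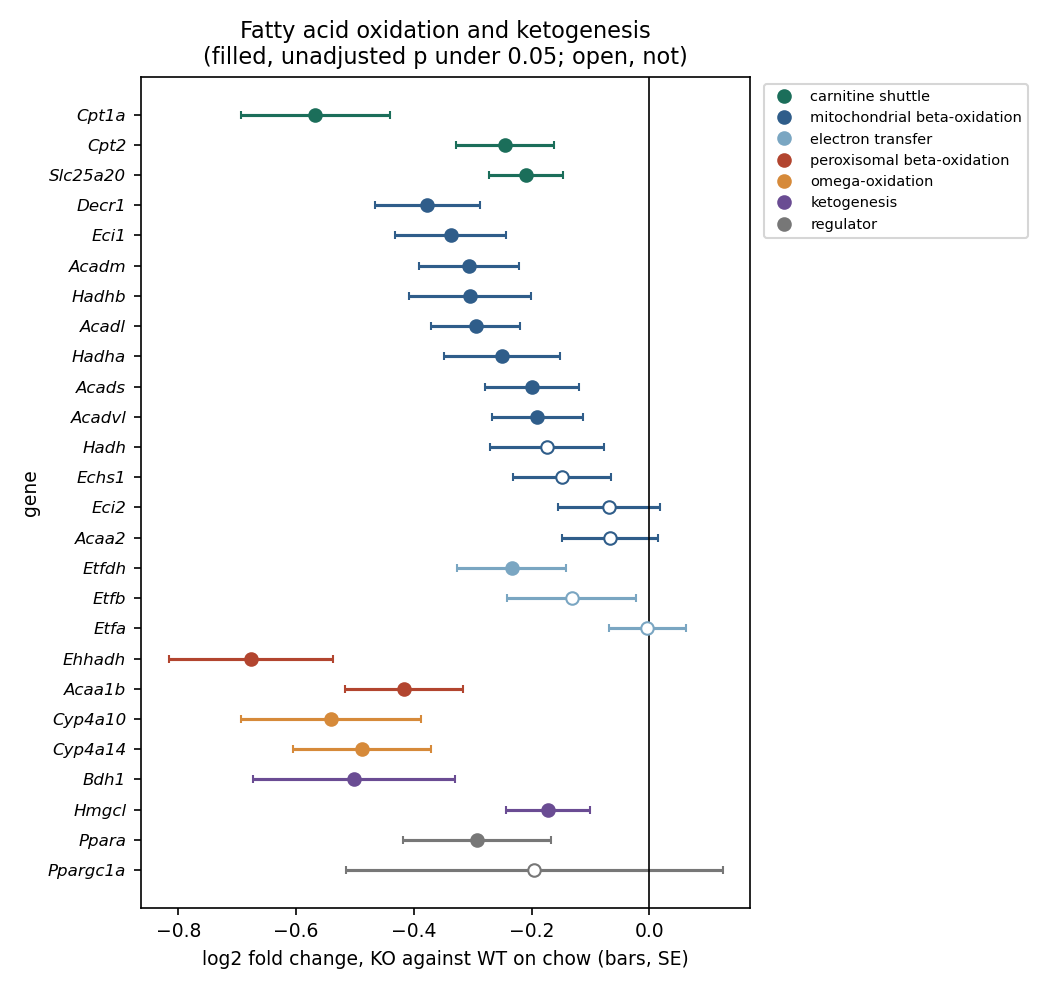
Log2 fold change of KO against WT on chow (horizontal axis, with SE bars) of 26 of the genes of fatty acid oxidation and ketogenesis, coloured by role. All 26 points lie below 0, and the 19 filled points had an unadjusted p under 0.05.

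The median of this list was negative with each of the 13 livers left out in turn. Without KO replicates 1 and 7 the median was -0.27 and 20 genes had an unadjusted p under 0.05, without WT replicate 6 the median was -0.26 with 21, and without WT replicate 3 it was -0.24. The number of oxidation genes past an adjusted p under 0.05 was 0 with all 13 livers and in 11 of the 13 omissions. It was 4 without WT replicate 3, among them Cpt1a (edgeR adjusted p = 0.0346) and Ehhadh (0.0361), and 1 without KO replicate 5, which was Ehhadh (0.0347).

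Neighbouring lists were chosen after these values were seen and share members with the oxidation list. Of 36 tested PPAR-alpha targets 33 were negative (median -0.28, 23 lower at an unadjusted p under 0.05), and of 23 peroxisome biogenesis genes 20 were negative (median -0.16, 12 lower). At that p 8.96% of all tested genes were lower. Pex16, which brings membrane proteins to new peroxisomes, stood at 99 to 144 CPM in WT livers against 75.2 to 94.5 CPM in KO livers, with no overlap (-0.44, edgeR adjusted p = 0.0709), and Pex19, its partner in that import, was at -0.33 (edgeR adjusted p = 0.0865). Each list again had 0 called genes.

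Genes induced by fasting leaned the same way and varied between animals. All 18 tested were negative with a median of -0.28, and 7 had an unadjusted p under 0.05, beside 8.96% of all tested genes that were lower at that p. Apoa4, a lipoprotein component made on lipid load, had lowest, median and highest values of 814, 2457 and 5637 CPM in WT and 416, 657 and 1185 CPM in KO (log2 fold change -2.10, SE 0.45, edgeR adjusted p = 0.0761). WT replicates 4, 5 and 6 were highest, and WT replicate 3 was below KO replicate 5. Cidec, a protein that enlarges lipid droplets, stood at 7.15 to 78.7 CPM in WT livers against 2.65 to 10.4 CPM in KO livers (-2.28, edgeR adjusted p = 0.102). WT replicate 6 had the highest Cidec. Igfbp1, an insulin-repressed secreted protein, was at 2977 CPM in WT replicate 6 against 169 to 442 CPM in the other WT livers, and Ddit4, a stress and fasting gene, at 194 CPM against 3.96 to 49.6 CPM. Cpt1a, also of the fasting list, was highest in WT replicate 5 instead. Without WT replicate 6 the median of the fasting list was -0.14, and Igfbp1 turned from -1.12 to 0.25.

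Fed-state genes were not all of 1 sign. Of 12 fed-state and insulin-induced genes, a list also chosen after the values were seen, 8 were positive and 4 negative, with a median of 0.17. At an unadjusted p under 0.05, 3 were higher and 0 lower. Over all tested genes 53.4% were positive, and 7.5% were higher at that p. The feeding state and hour of collection of each mouse are not labelled, so their part in these levels was not tested. Of 19 tested clock genes 1 had an unadjusted p under 0.05: Cry1, a repressor of the clock, at 0.50 (edgeR adjusted p = 0.131).

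Targets of LXR were mixed. Of 17 listed targets, Rnf145 included and chosen as a list after the values were seen, 10 were positive and the median was 0.08, with 5 higher and 1 lower at an unadjusted p under 0.05. The shares over all tested genes were 7.5% higher and 8.96% lower. Pltp, which transfers phospholipid between lipoproteins, had lowest, median and highest values of 82.8, 118 and 156 CPM in WT and 149, 215 and 245 CPM in KO (0.79, SE 0.15, edgeR adjusted p = 0.0682). Only KO replicate 5 was below the highest WT liver. Scd1, the stearoyl-CoA desaturase, stood at 1146 to 2276 CPM in WT livers against 1695 to 4043 CPM in KO livers (0.73, edgeR adjusted p = 0.0857). Srebf1, which encodes the lipogenic SREBP-1, was at 0.43 (edgeR adjusted p = 0.25). The receptor gene Nr1h3 was at -0.16 (edgeR adjusted p = 0.202).

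Genes of fatty acid synthesis had values of both signs. Of 21 tested, 9 were positive and 12 negative with a median of -0.03, and 4 were higher and 4 lower at an unadjusted p under 0.05. Among all tested genes 7.5% were higher and 8.96% lower at that p. Elovl5, an elongase of polyunsaturated chains, stood at 579 to 1052 CPM in WT livers against 336.9 to 709.6 CPM in KO livers (-0.72, edgeR adjusted p = 0.0825), and Elovl3 at 3.62 to 10.2 CPM and 2.29 to 5.79 CPM (-1.06, edgeR adjusted p = 0.0774). Of 26 genes of triglyceride and lipid droplets 20 were negative (median -0.20), with 7 lower and 3 higher, and without WT replicate 6 there were 17 negative and the median was -0.11. The seipin gene Bscl2, which shapes droplets, was the one with no overlap, at 44.1 to 59.2 CPM in WT livers against 39.1 to 44 CPM in KO livers (-0.23, edgeR adjusted p = 0.137).

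Genes that act on phosphatidylinositol and lysophospholipids had values of both signs. Of 29 tested, 14 were positive and 15 negative with a median of 0.00. At an unadjusted p under 0.05 there were 6 lower and 2 higher, beside 8.96% and 7.5% of all tested genes. At an adjusted p under 0.10, which 1.68% of all genes reached, there were 2 lower, and 1, Mboat7 itself, was called. Pnpla7, a lysophospholipase, stood at 76.5 to 148 CPM in WT livers against 68.5 to 92.5 CPM in KO livers (-0.62, SE 0.13, edgeR adjusted p = 0.0742), where WT replicate 3 lay among the KO livers. Lclat1, an acyltransferase of lysophospholipids that also acts on lysophosphatidylinositol, was at -0.36 (edgeR adjusted p = 0.107). Lpcat3, which puts polyunsaturated chains on phosphatidylcholine, was at -0.01, and Cdipt, the phosphatidylinositol synthase, at -0.08 (edgeR adjusted p = 0.982 and 0.572).

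Bile acid genes had values of both signs, and the listed xenobiotic genes with an unadjusted p under 0.05 were higher. Of 26 bile acid genes 12 were positive and 14 negative, with 2 higher and 5 lower at an unadjusted p under 0.05. At that p 7.5% of all tested genes were higher and 8.96% lower. Cyp2c70, the mouse enzyme of muricholic acid synthesis, had lowest, median and highest values of 125, 143 and 201 CPM in WT and 231.2, 281.1 and 525.5 CPM in KO (1.03, SE 0.19, edgeR adjusted p = 0.0676). All KO livers were above all WT livers, and KO replicate 2 was highest; leaving it out gave 0.85 and an edgeR adjusted p of 0.0227. Amacr, the racemase of bile acid side chains, was at -0.40 and Scp2, a peroxisomal sterol carrier and thiolase, at -0.29 (edgeR adjusted p = 0.0859 and 0.0981). Ugt2b1, a glucuronosyltransferase, did not overlap either, at 121 to 205 CPM in WT livers against 211 to 315 CPM in KO livers (0.55, edgeR adjusted p = 0.076), and Cyp2c29 was at 0.56 (edgeR adjusted p = 0.0761). Of 24 xenobiotic genes 6 were higher and 0 lower at an unadjusted p under 0.05, beside the same 7.5% and 8.96% of all tested genes. Of 18 tested NRF2 target and glutathione genes 5 were higher and 1 lower at that p. Ugdh, which supplies the glucuronic acid for conjugation, stood at 151 to 228 CPM in WT livers against 202 to 285 CPM in KO livers (0.48, edgeR adjusted p = 0.076), and Gclc, the rate-limiting enzyme of glutathione synthesis, was at 0.65 (edgeR adjusted p = 0.119). In both, WT replicate 3 was the WT liver that reached into the KO range. Members of the Cyp2c and Ugt2b families share sequence.

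By the smallest p, the other genes with positive values came from varied functions. Kmt5a, the histone H4 lysine methyltransferase, stood at 24.4 to 32.1 CPM in WT livers against 34.9 to 55.6 CPM in KO livers (0.63, SE 0.10, edgeR adjusted p = 0.062). Cnnm4, a magnesium transporter, stood at 5.68 to 7.02 CPM and 7.69 to 11.1 CPM (0.59). Arhgdia, a GDP-dissociation inhibitor of small GTPases, stood at 68.1 to 82 CPM and 88.8 to 111 CPM (0.39), Coq10a, a coenzyme Q carrier, at 22.4 to 29.1 CPM and 30.6 to 41.4 CPM (0.45), Plekhg5, a guanine nucleotide exchange factor, at 6.84 to 9.52 CPM and 10.6 to 13.8 CPM (0.51), and Wdr91, an endosomal protein, at 15.19 to 25.82 CPM and 28.9 to 53.6 CPM (0.82). None of these 6 overlapped between the groups. Rabep2, an endosomal trafficking protein, overlapped slightly, at 9.04 to 16.1 CPM and 15.5 to 26.9 CPM (0.75). The edgeR adjusted p-values of all 7 lay between 0.062 and 0.0709.

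On the negative side Ppa1, the cytosolic pyrophosphatase, had lowest, median and highest values of 229.9, 276.3 and 318.5 CPM in WT and 167, 196 and 217 CPM in KO, with no overlap (-0.51, SE 0.089, edgeR adjusted p = 0.0643). Ppp1r7, a regulatory subunit of protein phosphatase 1, stood at 25 to 29.1 CPM and 16.2 to 23.8 CPM, also without overlap (-0.47, edgeR adjusted p = 0.0659). Fabp2, a fatty acid binding protein typical of the intestine, stood at 75.7 to 185 CPM and 43.5 to 77.2 CPM (-1.13), where WT replicate 3 lay just under KO replicate 7. Fbxo36, an F-box gene, was at -1.09, Cgref1, a secreted calcium-binding growth regulator, at -2.05, the transporter gene Mfsd4b1 at -0.49 and the phosphoesterase gene Mppe1 at -0.996. The edgeR adjusted p-values of these 4 and of Fabp2 lay between 0.0643 and 0.0709. Cgref1 had no overlap, with 1.82 to 8.99 CPM in WT livers against 0.55 to 1.71 CPM in KO livers.

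**Figure D3:**
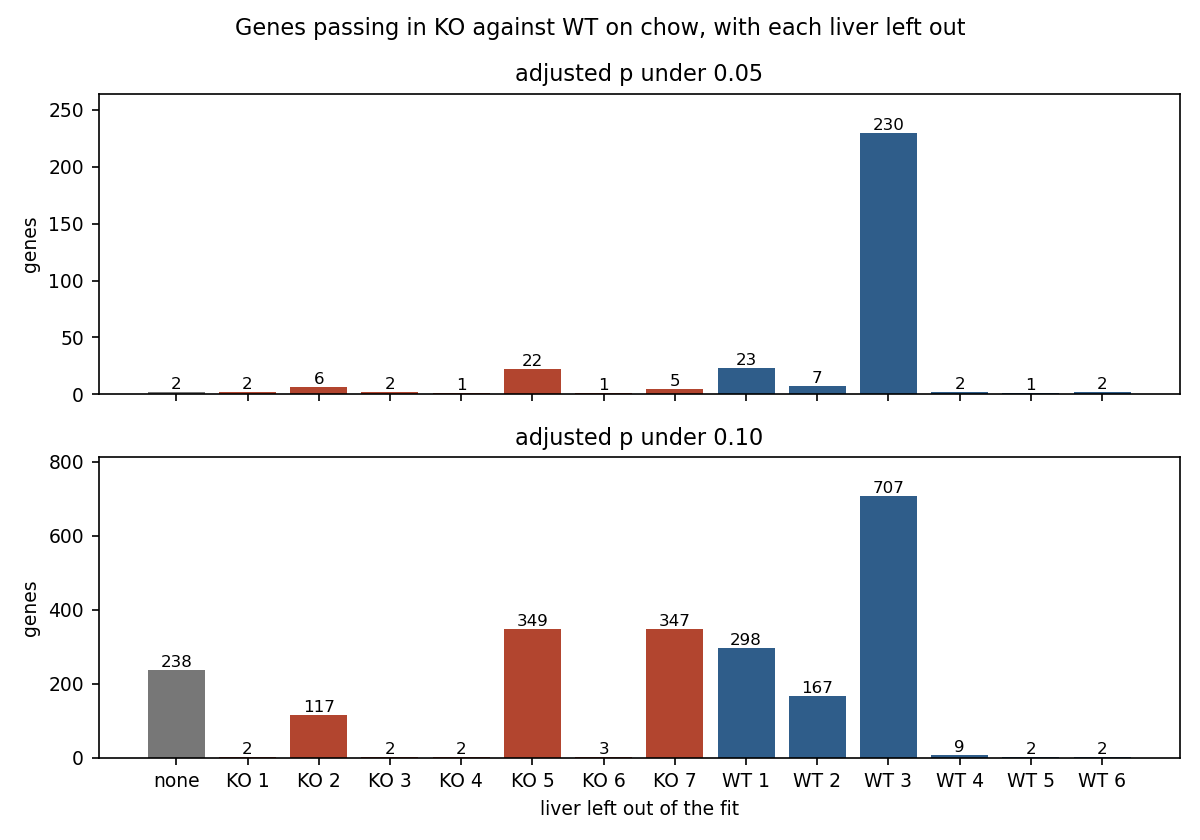
Number of genes (vertical axes) with an adjusted p under 0.05 (upper panel) and under 0.10 (lower panel) in KO against WT on chow, with no liver and with each of the 13 livers left out (horizontal axis; KO red, WT blue). The upper counts run from 1 to 230 and the lower ones from 2 to 707, and both are highest without WT replicate 3.

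How many genes passed depended on single livers and on the tool: DESeq2 on the same 13 libraries called 499 genes, 167 higher and 332 lower, where edgeR called 2. Over all tested genes 0.714% had no overlap between the groups, and picking by a small p in the same livers favours such genes. At an adjusted p under 0.10 there were 238 genes, 77 higher and 161 lower, of which 63 had no overlap. With each liver left out this count ranged from 2 (without KO replicates 1, 3 or 4, or WT replicates 5 or 6) to 707 (without WT replicate 3). Only Mboat7 and Rnf145 of the 238 stayed under 0.10 in all 13 omissions, and the others did so in 1 to 8 of them. Without KO replicates 1 and 7, 236 of the 238 had the same sign, and the others, Rnf227 and Tmem171, were not tested in that fit. The 238 were picked by p from largely the same livers, so kept signs are no separate support. The genes called at an adjusted p under 0.05 numbered 230 without WT replicate 3, which is 1.61% of those tested then, 88 higher and 142 lower.

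WT replicate 3 lay on the KO side for several single genes, while its Mboat7, at 38 CPM, was the highest of all livers. Dntt, the terminal transferase, stood at 1.39 CPM there, against 4.85 to 7.01 CPM in the other WT livers and 2.08 to 3.14 CPM in KO. Aprt, the adenine salvage enzyme, stood at 28.4 CPM against 46.5 to 60.5 CPM in the other WT livers and 33 to 36.3 CPM in KO. The kinase gene Tesk1 stood at 39.2 CPM against 24.1 to 28.1 CPM in the other WT livers and 34.5 to 38.1 CPM in KO. These 3 genes were chosen after their values were seen. Without that liver their log2 fold changes were -1.23, -0.56 and 0.46 (edgeR adjusted p = 0.00209, 0.00336 and 0.00468). With it their edgeR adjusted p-values were 0.0818, 0.102 and 0.0981. Because the genes were chosen with the place of this liver known, their smaller p-values without it are no separate support. In the 8 livers on the other diet, fitted on their own, none of the 3 passed an unadjusted p under 0.05: Aprt was at -0.05, Tesk1 at -0.14 and Dntt at -0.37, with unadjusted p-values of 0.713, 0.187 and 0.183. Rnf145 there stood at 28.4 to 31.7 CPM in WT livers against 30.4 to 40.1 CPM in KO livers (0.22). It did pass that unadjusted p, at 0.0468 by edgeR, with an adjusted p of 0.332. Whether these effects differ between the diets was not tested here.

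A fit that took its spread from all 21 libraries called 340 genes for the same contrast, 2.17% of those tested. Those that were also tested in the fit to the 13 livers all had the same sign and an unadjusted p under 0.05 there, 204 an adjusted p under 0.10, 64 no overlap and 2 an adjusted p under 0.05. Of all genes in the fit to the 13 livers, 16.5% had that unadjusted p, 1.68% an adjusted p under 0.10 and 0.714% no overlap. Both fits use these livers, so these counts are no separate support. With each chow liver left out of that larger fit, 48 (without WT replicate 6) to 325 (without WT replicate 3) of the 340 were still called, and 36 were called every time. Among these 36 were Mboat7, Rnf145, Kmt5a, Cyp2c70, Pltp, Apoa4, Pnpla7, Bhmt2, Ppa1 and Wdr91, but not Cpt1a.

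**Figure D4:**
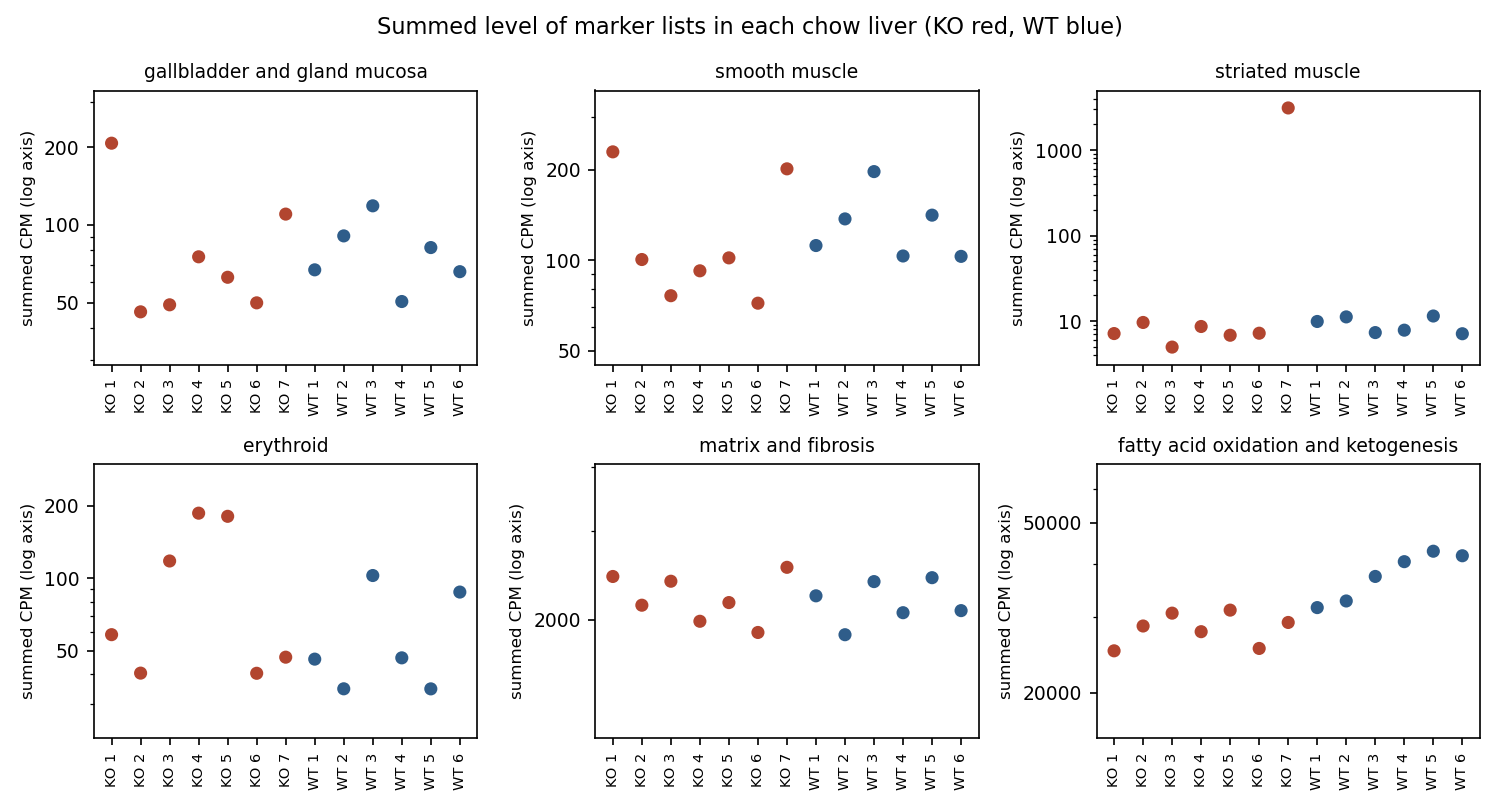
Summed level in CPM (vertical log axes) of 6 gene lists in each of the 13 chow livers (horizontal axis; KO red, WT blue). The mucosa list peaks in KO replicate 1 at 207 CPM and the striated muscle list in KO replicate 7 at 3113 CPM, while the oxidation list is lower in all KO than in all WT livers.

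Transcripts typical of mucosa and smooth muscle were high in some livers of both groups. Whether they came from inside the liver or from tissue beside it was not tested. Cholangiocyte genes also summed highest in KO replicates 1 and 7, at 179 and 138 CPM, against 72.8 to 112 CPM in all other livers. Dmbt1, a secreted protein of mucosal epithelia, stood at 92.7 and 52.9 CPM in KO replicates 1 and 7 and at 39.9 and 26.2 CPM in WT replicates 3 and 5, and at 0 to 0.57 CPM in the other 9 livers. Muc6, a gland mucin, was at 17.7, 5.13, 3.59 and 2.94 CPM in these 4 and at most 0.05 CPM elsewhere. Myh11, the smooth muscle myosin, was at 51.2, 35.6, 34.6 and 11.3 CPM there and at 2.14 to 6.08 CPM in the rest. All 14 mucosa genes summed to 46.1 to 207 CPM in KO and 50.5 to 119 CPM in WT, with 2 of them at 0 in all livers. WT replicate 5 stood apart less clearly than the other 3. Its mucosa sum, 81.7 CPM, lay within the 46.1 to 90.7 CPM of the other 9 livers. Its smooth muscle sum, 141 CPM, lay just above their 72 to 137 CPM. Striated muscle was confined to KO replicate 7 among these livers: its 20 genes summed to 3113 CPM there and to at most 11.5 CPM in any other, and Myh1 and Acta1, a myosin and an actin of skeletal muscle, stood at 414 and 405 CPM against at most 0.48 CPM. Lpl, lipoprotein lipase, was at 206 CPM there against 21.4 to 49.1 CPM. Pancreatic acinar genes were near 0 in every liver, with 9 of 16 at 0 and a sum of at most 6.83 CPM.

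Genes of matrix and bile ducts depended on the livers that held this RNA. Of 35 tested matrix genes 30 were positive, where 53.4% of all tested genes were. Their median was 0.37, 5 were higher at an unadjusted p under 0.05 (7.5% of all tested genes), and none was called. Without KO replicates 1 and 7, 8 of 34 were positive, the median was -0.08 and 5 were lower. Without all 4 livers with raised Dmbt1, Muc6 and Myh11 (KO replicates 1 and 7, WT replicates 3 and 5), 21 of 34 were positive and the median was 0.05. Col1a1, the main fibrillar collagen chain, stood at 25.2 and 20.1 CPM in KO replicates 1 and 7, at 2.81 to 5.83 CPM in the other KO livers and at 3.05 to 9.21 CPM in WT, and its log2 fold change turned from 0.95 to -0.30 without these 2 and was 0.16 without the 4. Cholangiocyte genes went from a median of 0.31 to -0.13 without the 2 livers and -0.09 without the 4. Recruited macrophage genes went from 0.17 to -0.15 and -0.19, smooth muscle genes from 0.54 to -1.12 and -0.19, and striated muscle genes from 1.89 to -0.25 and -0.41, in the same order. In these fits 10, 9 and 8 smooth muscle genes were tested, and only 4 of the 20 striated muscle genes each time. The fit without the 2 KO livers still held WT replicates 3 and 5. In a whole tissue, more cells of a type and more RNA per cell cannot be told apart.

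Stellate genes had a positive median in each of these fits. With all livers 16 of 18 were positive and the median was 0.24, and it was 0.16 both without KO replicates 1 and 7 and without the 4 livers. For endothelial genes 18 of 19 were positive and the median was 0.20, then 0.16 without the 2 livers and 0.05 with 13 of 19 positive without the 4. It was 0.13 without WT replicate 3 alone, the liver with the lowest endothelial sum. None of either list was called. Lamc1 and Postn, matrix genes with the smallest p, were at 0.37 each and at 0.27 each without KO replicates 1 and 7, and Lamc1 passed without WT replicate 3 (0.48, edgeR adjusted p = 0.0445). Cell cycle genes had a median of 0.26, then 0.22 without the 2 livers and 0.14 without the 4. Their summed level went the other way, at 145 to 182 CPM in WT livers and 115 to 155 CPM in KO livers. Hells, a chromatin remodeller of dividing cells, stood at 1.38 to 2.14 CPM in WT livers against 2.34 to 6.91 CPM in KO livers (1.07, edgeR adjusted p = 0.076). Ccnd1, cyclin D1, stood at 75.8 to 119 CPM and 23.2 to 73.8 CPM (-0.79, edgeR adjusted p = 0.136), and neither gene overlapped between the groups. Kupffer cell genes had a median of 0.02, which turned to -0.02 without the 2 livers and -0.21 without the 4. Interferon genes went from 0.07 to -0.13 without the 2, with 7 of 21 positive, and to -0.15 without the 4. Lymphocyte genes had 0.19, then 0.10 without WT replicate 6 and 0.02 without the 4, and acute phase genes 0.02. No gene of these 4 lists was called.

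Haemoglobin differed between animals more than between groups. The erythroid list summed to 118 to 186 CPM in KO replicates 3, 4 and 5, to 102.8 CPM in WT replicate 3 and 87.7 CPM in WT replicate 6, and to 34.8 to 58.4 CPM in the other 8 livers. Its median was 0.98, with 0 genes called, and Hbb-bs, the adult beta-globin, was at 1.19 (edgeR adjusted p = 0.502).

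**Figure D5:**
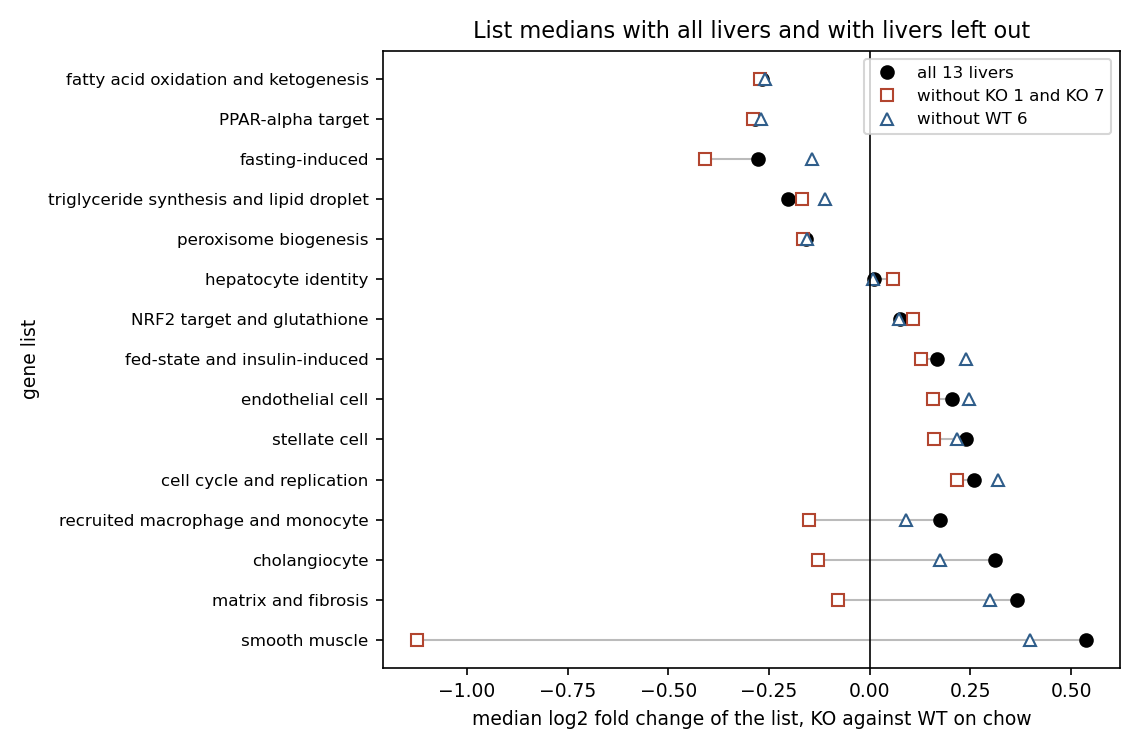
Median log2 fold change, KO against WT on chow (horizontal axis), of 15 gene lists with all 13 livers (filled circles), without KO replicates 1 and 7 (open squares) and without WT replicate 6 (open triangles). The oxidation list stays between -0.27 and -0.26, while the matrix, cholangiocyte, macrophage and smooth muscle lists move from positive to negative without KO replicates 1 and 7.

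An absolute log2 fold change over 1 was reached by 164 genes, 100 positive and 64 negative. Without KO replicates 1 and 7, 40 of the positive and 58 of the negative ones were still past it, and without WT replicate 6, 71 and 37. Among the genes with the widest spread within groups and at least 10 CPM were Olfr618, Dmbt1, Cyp2a22 and Sult2a1. Olfr618, an olfactory receptor gene, stood at 42.3 to 189 CPM in 7 livers of both groups and at 0 to 0.15 CPM in the other 6. Sult2a1, a sulfotransferase of steroids and bile acids, ranged from 13.1 to 289 CPM in KO and from 13.2 to 164 CPM in WT.

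Other pathway lists had no called gene. Amino acid breakdown and the urea cycle had 17 of 23 negative with a median of -0.16, and -0.06 without WT replicate 6. One-carbon and choline genes had a median of -0.02, with Bhmt2, a betaine-homocysteine methyltransferase homologue, at 175 to 275 CPM in WT livers against 130 to 180 CPM in KO livers (-0.51, edgeR adjusted p = 0.0709). Cholesterol synthesis had a median of 0.07, and -0.03 without WT replicate 6. In that list 5 were lower and 1 higher at an unadjusted p under 0.05, beside 8.96% and 7.5% of all tested genes. The median was -0.09 for p53 targets and 0.09 without WT replicate 6. With all livers it was near 0 in further lists: bile acid genes -0.05, NRF2 targets 0.07, the nuclear respiratory chain -0.03, the mitochondrial genome -0.02 and lysosome 0.04. Unfolded protein response genes had -0.14, and -0.03 without WT replicate 5. Among immediate-early genes Jun, an AP-1 subunit, stood at 32.7 to 55 CPM in WT livers against 46.6 to 147 CPM in KO livers (0.95, edgeR adjusted p = 0.122).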

How the data were processed

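RNA-seq of 13 chow livers was analysed. The authors deposited raw read counts per gene symbol, 1 file per library, per the file headers; CASAVA 2.17, STAR 2.6.1d, featureCounts 1.6.1 and GRCm38 are named without roles, per the submitters' processing notes, and the strand setting and annotation release are not given in the sources used here. Of 55418 symbols 55341 were found in GENCODE M21 (GRCm38), the source of positions; 48 of 183 positioned genes overlap exons of an opposite-strand gene.

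The 13 libraries were fitted alone with edgeR 4.0.16 (R 4.3.3): filterByExpr, TMM scaling, robust quasi-likelihood F tests, two-sided, with Benjamini-Hochberg adjustment over all genes tested. SE is the fold change over the square root of F. CPM is relative to the TMM-scaled total of tested genes. Libraries held 17502231 to 23058789 counts. In 36 pairs of libraries within groups, 0 were identical. The script was tested on simulated data.

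Alternatives were other scalings and filters, DESeq2 1.42.0, limma-voom 3.58.1, a mucosa score or animal-number runs in the model, a fit to 21 libraries, and leaving livers out.

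The genes named are Mboat7, the called genes, the 10 in each direction with the smallest p whose higher group averaged 2 CPM or more, genes called without KO replicates 1 and 7 (up to 6 in each direction), the 6 of at least 10 CPM with the widest spread within groups, up to 3 per list by p and, per list of another tissue, the 3 with the highest level; clone and model names were left out of all but the called genes. Others were chosen after their values were seen: Cidec, Igfbp1, Ddit4, Scd1, Srebf1, Nr1h3, Acaa1a, Ppara, Eci2, Acaa2, Etfa, Acadl, Lpcat3, Cdipt, Col1a1, Lpl, Muc6, Zfp970, Gm14403, Arrdc3, Cyp7a1 and further list members given only as values. Some genes that this rule names are not reported here. The members and lists were chosen with earlier results of these data known.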

Additional observations from a re-analysis of the deposited data

Results flagged for a closer look

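In 148 groups of livers checked for 1 value far from the rest (the gap to its neighbour against the range, Dixon's test at 95%), 9 stood apart; chance flags about 1 in 20.

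The bile acid enzyme gene Cyp2c70 reached 525.5 CPM in KO replicate 2. Summed over lists, mucosa genes reached 207 CPM in KO replicate 1 and striated muscle genes 3113 CPM in KO replicate 7. The bile acid list reached 9498 CPM in KO replicate 2, which is also the liver with the highest Cyp2c70, and neutrophil genes 70.1 CPM in KO replicate 5. In WT, endothelial genes were lowest in replicate 3 at 419 CPM, Kupffer cell genes were highest in replicate 4 at 1398 CPM, and in replicate 6 cholangiocyte genes were lowest at 72.8 CPM and the glucose and glycogen list highest at 14700 CPM.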

How the results depend on the processing

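Mboat7 was called under every alternative run, with a log2 fold change of -0.79 to -0.72 over the 13 omissions. The count of called genes was 2 with all livers. It was 46 with no low-count filter, 499 with DESeq2, 340 in the fit to 21 libraries, 1 without KO replicates 1 and 7, 6 without these and WT replicates 3 and 5, 1 without KO replicates 4 and 5, and 1 with animal-number runs as a block; with single livers left out it ranged from 1 to 230. At an adjusted p under 0.10, a threshold chosen after seeing the data, 238 genes passed. That count was 867 with DESeq2, 83 with limma-voom quality weights, 723 in the fit to 21 libraries, 1, 53 and 18 in the same 3 omissions of several livers, 6 with the block, and 2 to 707 with single livers left out. The other scalings and filters gave 2 called genes, and limma-voom with quality weights and the fit without robust moderation gave 3. The cause of these differences was not tested. No called gene changed its sign under these alternatives; some list medians and uncalled genes, such as the matrix list and Igfbp1, did with livers left out. No paired analysis was possible because replicate numbers were given in accession order.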

Other observations

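Xist, the transcript of the inactive X chromosome, had 10469 to 20845 counts in every chow liver, and 4 Y-linked genes together had 0 counts in 11 livers, 1 in KO replicate 3 and 10 in KO replicate 6; the labels give no sex. Zfp970 and Gm14403, 2 zinc finger genes chosen after their values were seen, were at 0 CPM in KO replicate 6 and WT replicate 4, against 3.11 to 21.5 CPM and 1.44 to 9.73 CPM in the other 11 livers. Quality weights from limma-voom were lowest for WT replicate 6, at 0.54, and highest for KO replicate 2, at 1.53. Arrdc3, an arrestin-domain gene, ranged from 14.1 to 218 CPM in WT and from 43.9 to 557 CPM in KO, and Cyp7a1, the rate-limiting enzyme of bile acid synthesis, from 8.84 to 165 CPM in WT and from 8.69 to 189 CPM in KO, so that both varied more than 10-fold between animals of 1 group.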
